A study of Mus musculus with 4 samples.

Results

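The 8 genes described here are Hif1a, which encodes the oxygen-regulated subunit of the transcription factor HIF-1, and 7 genes known as targets of that factor, Vegfa, Adm, Bnip3, Egln3, Ndrg1, P4ha1 and Ankrd37. They were chosen by symbol from the 32285 genes of the deposited tables, and each symbol matched 1 row. Single-cell RNA-seq had been carried out on 4 mouse libraries, labelled as lymph node, in a series on glycan targeting and checkpoint blockade in ovarian tumours. The groups, 1 library each, were a library labelled ctrl for control, the glucose analogue 2-deoxy-D-glucose (2DG), a treatment labelled aPDL1, and the pair of treatments given together (2DG_aPDL1), named the combination below. The labels used here give no strain, age, sex, dose, time, tumour line or number of animals for any group. The series' design text speaks of young and aged and of treated and naive mice, without tying an age to a library. Because no group was repeated, the spread within a group is unknown, no test was made, and every difference below is between single libraries.

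Cells keep HIF-1 alpha low while oxygen is present, because prolyl hydroxylases mark the protein for degradation, and the protein builds up and enters the nucleus when oxygen falls. HIF then switches on genes for vessel growth, glycolysis, mitophagy and collagen modification, and it also raises Egln3, itself a prolyl hydroxylase that acts back on HIF. In myeloid cells HIF activity can also follow inflammatory signals or lactate, and much of the control of Hif1a is on the protein, which mRNA counts do not see.

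HIF binds DNA at a short core, and the promoter stretches that hold the most cores are shown for 4 of the 7 targets. All 7 targets were lower than ctrl in at least 1 treated library of both main myeloid gates. The stretches of Vegfa and Ankrd37 are not shown. Promoters were taken from RefSeq on GRCm38.p6 for 7 of the 8 genes, with Ndrg1 left without an entry, and were searched for ACGTG and GCGTG on both strands in the 250 bases before the transcription start. A match to CACGTG was counted on each strand. The search found 5 cores in the promoter of Bnip3, 4 in that of Ankrd37, 3 each in those of P4ha1 and Hif1a, 2 in that of Adm, 1 in that of Egln3, and 0 and 2 in the 2 entries of Vegfa. The Vegfa entry with 2 cores (chr17:46025164-46025413) lies inside the gene span given below, and the entry with 0 lies before its start. The entries of Hif1a and Ankrd37 also lie inside the gene spans given below. Of all 32851 promoter entries, 38.6% held at least 1 core, 16.7% held 2 or more and 2.58% held 4 or more. A match is only a match of letters. The 120-base windows below are written 5′ to 3′ along the strand of the gene, with the core matches of either strand in capitals.
Bnip3, chr7:138909522-138909641, minus strand: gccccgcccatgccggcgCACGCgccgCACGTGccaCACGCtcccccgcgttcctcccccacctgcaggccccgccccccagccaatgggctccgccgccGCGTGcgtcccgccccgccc
P4ha1, chr10:59323097-59323216, plus strand: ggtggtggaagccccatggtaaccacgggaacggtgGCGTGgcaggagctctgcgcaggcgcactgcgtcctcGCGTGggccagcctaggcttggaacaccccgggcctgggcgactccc
Adm, chr7:110627513-110627632, plus strand: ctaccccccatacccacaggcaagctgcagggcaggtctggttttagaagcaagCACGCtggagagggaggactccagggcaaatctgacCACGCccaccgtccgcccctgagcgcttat
Egln3, chr12:54203994-54204113, minus strand: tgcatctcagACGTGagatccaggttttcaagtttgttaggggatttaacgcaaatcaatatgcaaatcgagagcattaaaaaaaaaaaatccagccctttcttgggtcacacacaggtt
The Bnip3 window held all 5 of its matches between 117 and 35 bases before the start, while the only match of Egln3 lay 229 bases before it. The P4ha1 window held 2 of its 3 matches.

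The libraries held between 61859753 and 73885214 UMIs, and the cells analysed numbered 8371 (ctrl), 7371 (2DG), 8305 (aPDL1) and 8522 (combination). Cells were put into types by marker genes that include none of the 8 genes, and 95.4% of the 28197 typed cells lay in a cluster of the same lineage. The clusters were named from the same markers, so part of this match is built in. The monocyte or macrophage gate held 3258, 2550, 3299 and 3501 cells, always in the order ctrl, 2DG, aPDL1 and combination. The neutrophil gate held 2951, 322, 261 and 264 cells, the CD8 T cell gate 117, 1370, 1615 and 1674, the regulatory T cell gate 119, 516, 371 and 305, and the conventional CD4 T cell gate 113, 499, 337 and 375. Markers of lymph node stroma summed to 1.23, 2.15, 3.76 and 4.57 counts per 1000000 UMIs (CPM) over all cells, and B cells numbered 69, 119, 223 and 449, so defining cells of the labelled tissue were scarce. Levels below are CPM over the UMIs of a gate, and each interval is an exact Poisson 95% interval that covers counting error only. Between 22 and 30 barcodes were shared by each pair of libraries. Cells left untyped, 15.7% of those in ctrl, are outside the gates. In ctrl they held 32.2 CPM of Adm, 423 of Vegfa, 784 of Ndrg1, 100.3 of Ankrd37 and 798.5 of Hif1a. These levels were above those of both myeloid gates of ctrl. Vegfa in untyped cells of the treated libraries was at 83.3, 109.5 and 81.8 CPM.

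**Figure D1:**
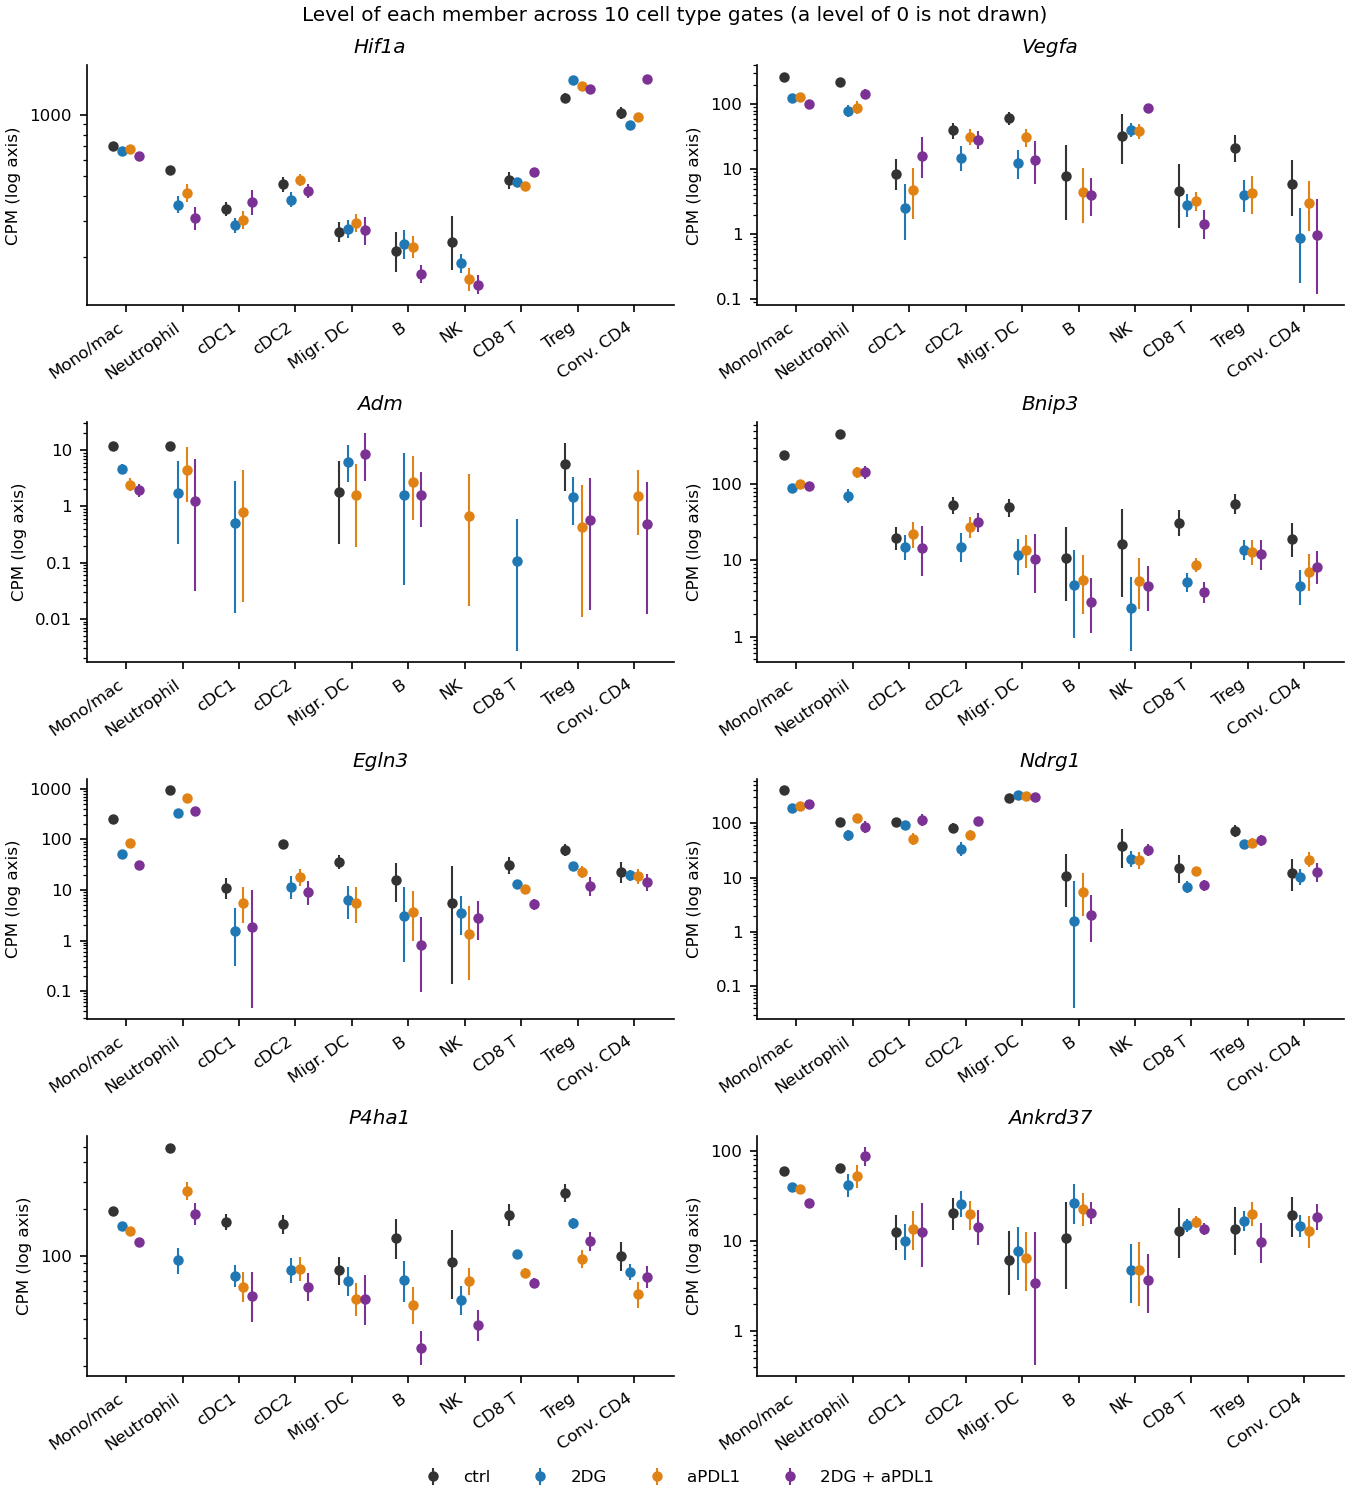
CPM (log axis) of each of the 8 genes in 10 cell type gates, with points for the 4 libraries and bars for exact Poisson 95% intervals; a level of 0 is not drawn. Bnip3, Egln3 and Vegfa were highest in monocytes or macrophages and neutrophils of ctrl, while Hif1a was highest in regulatory and conventional CD4 T cells.

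Most targets were lower in the treated libraries than in ctrl in the myeloid gates. No gene of the 8 counted as higher than in ctrl in any of the 5 gates compared. A gene counted as lower or higher when its CPM differed by at least 1.5-fold. The larger of its UMI counts, in either library of the pair, also had to be at least 50. Ndrg1 in conventional CD4 T cells, at 11.9 CPM in ctrl and 21.4 with aPDL1, fell short of that number, with 10 and 42 UMIs. In monocytes or macrophages 6, 6 and 7 of 8 were lower, and 3, 3 and 5 with each of 4 cell states weighing alike. Of these states, named below, non-classical monocytes held only 32 cells in ctrl. The background over all genes tested in monocytes or macrophages was 8.57%, 9.25% and 13.3% lower, and 12%, 13.7% and 12.5% higher. In neutrophils 7, 4 and 6 of 8 were lower, where 17.6%, 17.7% and 15.2% of all genes were lower and 30.3%, 26.8% and 35.2% higher. With the 2 neutrophil states described below weighing alike, the count for aPDL1 was 2. Scaling by TMM factors shifted the neutrophil ratios downwards, with counts of 8, 5 and 6.

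Fewer of the 8 could be judged in T cells, where counts were small. In CD8 T cells of ctrl, the library with the higher CPM, Egln3, Bnip3 and Ndrg1 had 27, 27 and 13 UMIs. They were judged only where the treated library held at least 50. In CD8 T cells 3 of 5 were lower with 2DG, 3 of 6 with aPDL1 and 3 of 5 in the combination, beside 8.97%, 9.91% and 13.7% of all genes lower and 9.76%, 12.1% and 12% higher. In regulatory T cells 3 of 5, 3 of 4 and 3 of 4 were lower, beside 6.67%, 6.8% and 9.81% of all genes lower and 7.43%, 9.83% and 11% higher. These counts were 1, 1 and 1 without proliferating cells, and 0, 1 and 1 in cells with no UMI of 5 myeloid genes, where Ndrg1 changed sign. In conventional CD4 T cells 0 of 4, 1 of 2 and 0 of 2 were lower, beside 7.23%, 6.01% and 9.64% of all genes lower and 8.09%, 8.83% and 11.8% higher. These 3 comparisons share the ctrl library, so a level peculiar to ctrl enters all of them.

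**Figure D2:**
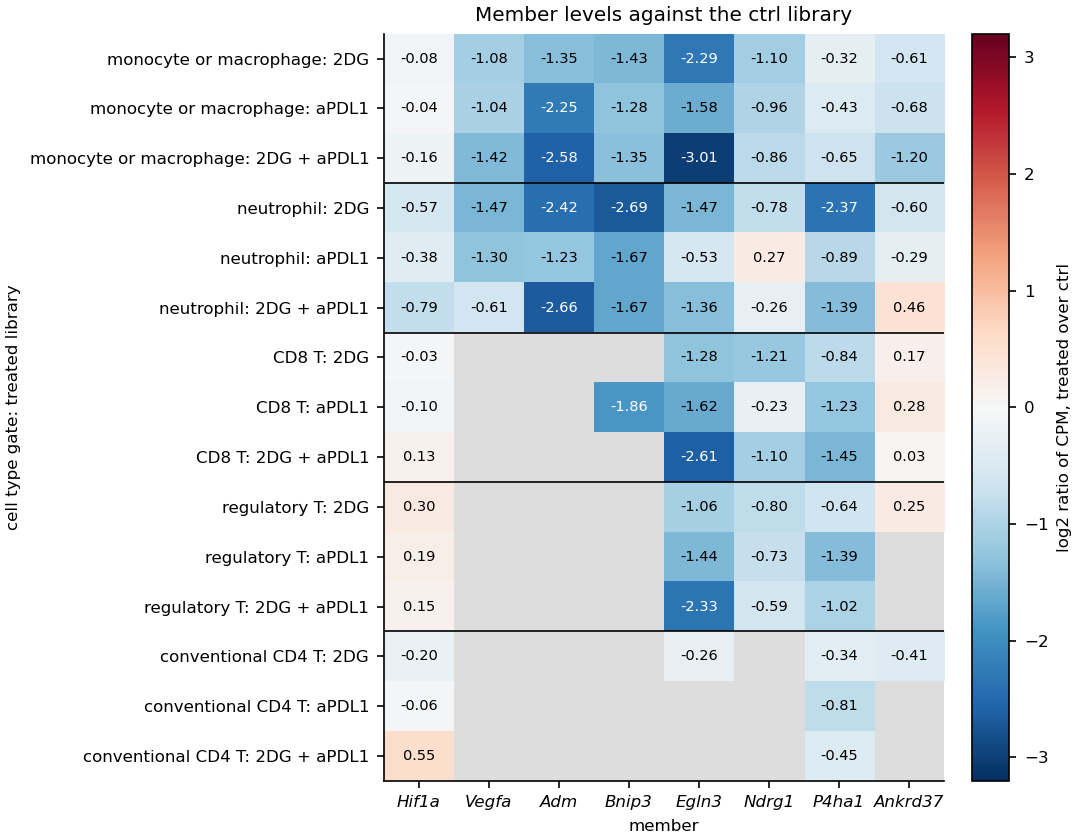
Log2 ratio of CPM, treated library over ctrl, for each of the 8 genes (columns) in 5 cell type gates and 3 treated libraries (rows). Blue marks lower and red higher, and grey marks fewer than 50 UMIs in both libraries. In monocytes or macrophages Egln3 had the lowest value, at -3.01 in the combination, and Hif1a stayed between -0.16 and -0.04.

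Hif1a itself, the regulator (chr12:73901375-73947530, plus strand, GENCODE vM21 on mm10), stayed near its ctrl level in monocytes or macrophages, unlike most targets. Monocytes or macrophages held 700 CPM (691 to 708) in ctrl and 662 (651 to 672), 683 (673 to 693) and 625 (615 to 634) in 2DG, aPDL1 and the combination. All 4 libraries lay close together, with log2 ratios to ctrl of -0.08, -0.04 and -0.16. With the cell states described below weighing alike, Hif1a stood at 548 CPM in ctrl and 609, 625 and 554 in the treated libraries, so ctrl was lowest. Within states, every treated library was above ctrl in C1q macrophages and below it in Ly6c2 monocytes. Neutrophils held 536 CPM (524 to 547) in ctrl and 361 (327 to 397), 412 (371 to 456) and 309 (272 to 350) in 2DG, aPDL1 and the combination. There the treated libraries were all below ctrl, and the combination passed the 1.5-fold mark at a log2 ratio of -0.79, beside -0.57 for 2DG and -0.38 for aPDL1. With TMM factors these were -1.05, -0.74 and -0.51, so 2DG passed as well.

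Regulatory and conventional CD4 T cells carried the highest Hif1a levels of the 10 gates drawn. Regulatory T cells held 1216, 1494, 1383 and 1345 CPM, and conventional CD4 T cells 1023, 890, 980 and 1501. In conventional CD4 T cells the combination stood above both single treatments, with log2 ratios of 0.61 to aPDL1 (0.53 to 0.70) and 0.75 to 2DG (0.68 to 0.83), and of 0.55 to ctrl. CD8 T cells held 477, 469, 447 and 523 CPM, with the interval of ctrl (432 to 526) spanning the other 3. NK cells, at 237, 186, 155 and 146 CPM, and B cells, at 213, 231, 223 and 164, were among the lowest. An antisense gene, Gm15283, spans Hif1a on the opposite strand, and with the strand setting of the counting not given in the sources used here, part of the Hif1a count is uncertain.

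Egln3, the prolyl hydroxylase that HIF induces (chr12:54178981-54203860, minus strand), had the lowest ratio to ctrl of the 8 genes in monocytes or macrophages with 2DG and in the combination. Its level there was 254 CPM (249 to 260) in ctrl and 51.9 (49.0 to 55.0), 85.2 (81.6 to 88.9) and 31.5 (29.4 to 33.7) in 2DG, aPDL1 and the combination. The 4 intervals were apart, and the order was ctrl, aPDL1, 2DG and the combination. The log2 ratios to ctrl were -2.29, -1.58 and -3.01, and the combination was below aPDL1 by a log2 ratio of -1.44 (-1.55 to -1.32) and below 2DG by -0.72 (-0.85 to -0.59).

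In neutrophils Egln3 was at 931 CPM (916 to 946) in ctrl and 335 (303 to 370), 646 (594 to 700) and 361 (321 to 405) in 2DG, aPDL1 and the combination. The same order held for ctrl and aPDL1, while the intervals of 2DG and the combination overlapped. The log2 ratio of aPDL1 to ctrl, -0.53, was under the 1.5-fold mark. CD8 T cells had Egln3 at 31.3 CPM (20.7 to 45.6) in ctrl and 13.1 (10.9 to 15.6), 10.3 (8.52 to 12.4) and 5.18 (3.93 to 6.72) in 2DG, aPDL1 and the combination. Regulatory T cells held 61.2, 29.4, 22.6 and 12.03 CPM, again lowest in the combination. Type 2 dendritic cells had 79.4 CPM in ctrl and 11.6, 17.7 and 9.14 in the others.

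Vegfa encodes the main secreted factor of vessel growth (chr17:46016993-46032369, minus strand). Monocytes or macrophages held 266 CPM (261 to 272) in ctrl and 126 (122 to 131), 129 (125 to 134) and 99.8 (96.1 to 104) in 2DG, aPDL1 and the combination. The single treatments could not be told apart by their intervals, and the combination lay below both. The log2 ratios to ctrl were -1.08, -1.04 and -1.42. In neutrophils the level was 221 CPM (214 to 229) in ctrl and 79.2 (63.8 to 97.3), 89.4 (71.0 to 111) and 144 (119 to 173) in 2DG, aPDL1 and the combination. Here the combination was the highest of the treated libraries. NK cells also held most in the combination, at 32.4, 40.5, 39.1 and 89.3 CPM, with 6 UMIs in ctrl. T cells held little, with 4, 27, 35 and 16 UMIs in all CD8 T cells.

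Adm encodes adrenomedullin, a vasodilator peptide (chr7:110627661-110629820, plus strand), and among typed cells was detected mostly in the myeloid gates. Untyped cells held 32.2 CPM in ctrl, from 238 UMIs, and 3.21, 6.06 and 5.92 in 2DG, aPDL1 and the combination. Monocytes or macrophages held 11.7 CPM (10.6 to 12.9) in ctrl and 4.57 (3.72 to 5.56), 2.44 (1.87 to 3.14) and 1.94 (1.46 to 2.54) in 2DG, aPDL1 and the combination. The log2 ratios to ctrl were -1.35, -2.25 and -2.58, from 415 UMIs in ctrl and 101, 61 and 53 in the others. With the cell states weighing alike the ratio for 2DG turned to 0.10, and in the macrophages marked by Spp1 and Arg1 Adm was at 23.4 CPM in ctrl and 28.5 with 2DG. Neutrophils held 179 UMIs in ctrl, or 11.6 CPM, and only 2, 4 and 1 in the treated libraries, so the ratios there, with intervals from -5.80 to -0.87 for 2DG, -3.29 to -0.02 for aPDL1 and -8.55 to -0.74 for the combination, are loose. CD8 T cells of ctrl held 0 UMIs of Adm, where 3 counts would be 3.48 CPM and the exact Poisson interval ends at 4.28 CPM.

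Bnip3 encodes a mitochondrial protein that drives mitophagy (chr7:138890836-138909519, minus strand). Its level in monocytes or macrophages was 242 CPM (237 to 247) in ctrl and 89.6 (85.6 to 93.6), 99.7 (95.8 to 104) and 94.95 (91.3 to 98.7) in 2DG, aPDL1 and the combination. The treated libraries lay within a narrow band, all far under ctrl, with log2 ratios of -1.43, -1.28 and -1.35. In neutrophils Bnip3 was at 458 CPM (447 to 469) in ctrl and 70.5 (56.0 to 87.7), 144 (120 to 170) and 143 (118 to 171) in 2DG, aPDL1 and the combination. The 2DG library was the lowest, at a log2 ratio of -2.69 to ctrl, against -1.67 for both aPDL1 and the combination.

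Bnip3 was also highest in ctrl among T cells. CD8 T cells held 31.3 CPM (20.7 to 45.6) in ctrl and 5.16 (3.81 to 6.82), 8.77 (7.10 to 10.7) and 3.82 (2.75 to 5.16) in 2DG, aPDL1 and the combination, from 27, 49, 95 and 42 UMIs. No interval of a treated library reached that of ctrl. Regulatory T cells held 55.6, 13.8, 13.0 and 12.03 CPM, from 49, 48, 30 and 21 UMIs.

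P4ha1 encodes a subunit of the enzyme that hydroxylates proline in collagen (chr10:59323296-59373304, plus strand). Monocytes or macrophages held 195 CPM (191 to 200) in ctrl and 156 (151 to 162), 145 (140 to 149) and 124 (120 to 128) in 2DG, aPDL1 and the combination. The steps between libraries were small, and only the combination, at a log2 ratio of -0.65, passed the 1.5-fold mark, which it did not with the cell states weighing alike, at -0.35. Neutrophils held 489 CPM (478 to 500) in ctrl and 94.0 (77.1 to 114), 263 (230 to 298) and 186 (158 to 218) in 2DG, aPDL1 and the combination. All 4 intervals were apart, and the log2 ratios to ctrl were -2.37, -0.89 and -1.39.

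P4ha1 was the target with the most counts in CD8 T cells and was lower there in every treated library. It was at 183 CPM (156 to 214) in ctrl and 103 (96.6 to 110), 78.4 (73.2 to 83.9) and 67.2 (62.5 to 72.2) in 2DG, aPDL1 and the combination, with log2 ratios to ctrl of -0.84, -1.23 and -1.45. Regulatory T cells held 253, 163, 96.5 and 125 CPM, and conventional CD4 T cells 100, 79.7, 57.1 and 73.8. The ctrl library was also the highest for B cells, at 130, 70.2, 49.1 and 26.1 CPM, for type 1 dendritic cells, at 166, 74.9, 64.0 and 56.0, and for type 2 dendritic cells, at 160, 81.2, 82.9 and 64.0.

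Ndrg1 encodes a stress-responsive protein (chr15:66929318-66969640, minus strand). Monocytes or macrophages held 400 CPM (394 to 407) in ctrl and 186 (181 to 192), 206 (200 to 212) and 220 (215 to 226) in 2DG, aPDL1 and the combination. The log2 ratios to ctrl were -1.10, -0.96 and -0.86, with the combination the highest of the treated libraries. Neutrophils held 104 CPM (99.1 to 109) in ctrl and 60.1 (46.8 to 76.0), 125 (103 to 150) and 86.2 (67.2 to 109) in 2DG, aPDL1 and the combination, so that only 2DG was past the mark. Migratory dendritic cells kept a flat level of 294, 330, 318 and 307 CPM. CD8 T cells had it at 15.1, 6.73, 13.3 and 7.28 CPM, from only 13 UMIs in ctrl, with the 2 libraries given 2DG lowest.

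Ankrd37 encodes a small ankyrin-repeat protein (chr8:45996902-46005707, minus strand) and overlaps Ufsp2 and Lrp2bp on the opposite strand. Monocytes or macrophages held 60.3 CPM (57.8 to 62.9) in ctrl and 39.6 (37.0 to 42.3), 37.6 (35.3 to 40.1) and 26.3 (24.4 to 28.2) in 2DG, aPDL1 and the combination. The combination was the lowest, with log2 ratios to ctrl of -0.61, -0.68 and -1.20. Neutrophils held 63.9 CPM (60.0 to 68.0) in ctrl and 41.8 (30.8 to 55.4), 51.9 (38.1 to 69.0) and 87.4 (68.3 to 110) in 2DG, aPDL1 and the combination. There the combination was the highest, with a log2 ratio of 0.46 to ctrl, under the mark, and of 0.20 with TMM factors. CD8 T cells showed no such spread, at 12.8, 14.9, 16.2 and 13.6 CPM.

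**Figure D3:**
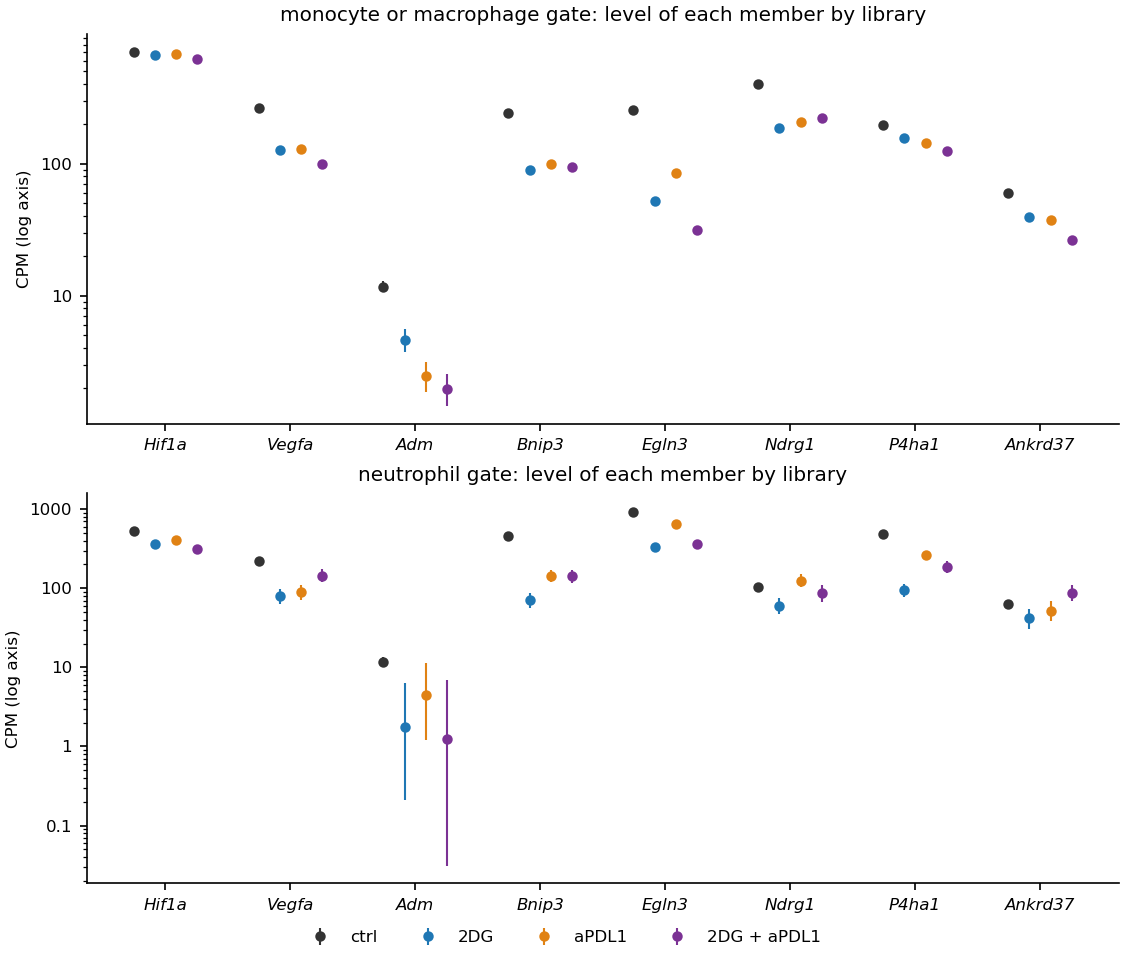
CPM (log axis) of each of the 8 genes in the monocyte or macrophage gate (top) and the neutrophil gate (bottom), with points for the 4 libraries and bars for exact Poisson 95% intervals. In the top panel ctrl is the highest library for every gene, and in the bottom panel Ndrg1 is highest with aPDL1 and Ankrd37 in the combination.

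Set against the single treatments, the combination was lower for a few targets in monocytes or macrophages, while in neutrophils genes went both ways. In monocytes or macrophages 1 of 8, Egln3, was lower than with aPDL1, where 7.84% of all genes were lower. Against 2DG 3 of 8 were lower, Adm at a log2 ratio of -1.23, Egln3 at -0.72 and Ankrd37 at -0.59, where 7.21% of all genes were lower. In neutrophils 2 of 7 were higher than with aPDL1, Vegfa at 0.69 (0.27 to 1.12) and Ankrd37 at 0.75 (0.20 to 1.32), where 13.6% of all genes were higher. Egln3 was lower there, as 1 of 7, at -0.84 (-1.05 to -0.64), where 9.56% of all genes were lower. Against 2DG 4 of 7 were higher in neutrophils, Vegfa at 0.86, Bnip3 at 1.02, P4ha1 at 0.98 and Ankrd37 at 1.06, where 9.2% of all genes were higher. In CD8 T cells 3 of 6 were lower than with aPDL1, Bnip3 at -1.19, Egln3 at -0.99 and Ndrg1 at -0.87, where 6.02% of all genes were lower. Against 2DG 2 of 5 were lower there, beside 493 of 9780 genes. In regulatory T cells 1 of 4 was lower than with aPDL1, beside 439 of 6173 genes, and 2 of 5 than with 2DG, beside 488 of 7237. In conventional CD4 T cells only Hif1a passed the mark, higher than with aPDL1 (1 of 2, beside 370 of 5934 genes) and with 2DG (1 of 4, beside 543 of 7336).

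Levels of other cell types' markers moved with these results. In the monocyte or macrophage gate the 8 neutrophil markers, none of them at 0, summed to 754, 304, 268 and 305 CPM. In the neutrophil gate the 11 monocyte or macrophage markers summed to 799, 2812, 3065 and 2266 CPM. Of these sums Lyz2 alone made up 401.6, 2176, 2385 and 1754 CPM, so most of the difference lay in that gene. Median UMIs per cell were 10855, 7916, 6995 and 7122 in the former gate and 3857, 2901.5, 2638 and 2630.5 in the latter. The heat shock genes Hspa1a and Hspa1b, a sign of handling or stress, together stood at 688, 450, 439 and 124 CPM in monocytes or macrophages and 686, 151, 331 and 70.2 in neutrophils. The part of these differences in the results was not tested.

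T cells of ctrl carried more of some myeloid genes than those of the other libraries. In CD8 T cells S100a8 and S100a9 together stood at 62.7, 8.10, 6.28 and 3.09 CPM, and the 8 neutrophil markers at 152, 70.6, 75.5 and 110. The ctrl CD8 T cells held 0.153% of the neutrophils' S100a8 level, 6.85% of their Bnip3 level, 3.37% of their Egln3 level and 37.5% of their P4ha1 level. Of the neutrophils' levels of Lyz2, Arg1 and Fn1, genes used more by macrophages, they held 6.36%, 8.42% and 10.25%. Set against the monocytes or macrophages of ctrl, they held 12.95% of the Bnip3 level, 12.3% of Egln3, 93.9% of P4ha1, 12.4% of S100a8, 27.2% of S100a9 and 0.744% of Lyz2. Hspa1a and Hspa1b stood at 832, 308, 129 and 18.5 CPM in CD8 T cells. In regulatory T cells Arg1 and Spp1, markers of a macrophage state, stood at 511, 33.7, 47.8 and 63.0 CPM, and Arg1 of ctrl was at 6.68% of its level in monocytes or macrophages. The neutrophil markers there summed to 398, 335, 421 and 413 CPM and the monocyte or macrophage markers to 332, 358, 400 and 407. S100a8 and S100a9 together stood at 112, 10.95, 9.56 and 12.6 CPM in regulatory T cells, and Cxcl3, a neutrophil chemokine gene, at 245 CPM in ctrl and 0.288 with 2DG. The part of these genes in the T cell results was not tested beyond the recomputation given next.

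The T cell values were recomputed in cells with no UMI of Arg1, Spp1, Fn1, S100a8 or S100a9, a choice made after the data had been seen. This left 57, 1057, 1227 and 1379 CD8 T cells and 38, 414, 298 and 253 regulatory T cells. In CD8 T cells P4ha1 was lower still, with log2 ratios to ctrl of -1.27, -1.67 and -1.87, and Egln3 was at -0.77, -1.24 and -1.87. The number of genes lower in CD8 T cells was then 2, 4 and 3. In regulatory T cells it was 0, 1 and 1, with Egln3 at -0.35, -0.96 and -1.52, and Ndrg1 changed sign to 0.37, 0.25 and 0.45.

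The makeup of the monocyte or macrophage gate differed between libraries, so levels were also taken within states defined by other genes. Macrophages marked by Spp1, Arg1 and Inhba numbered 1224, 280, 496 and 277, Ly6c2 monocytes 1004, 934, 1433 and 1621, and C1q macrophages 632, 899, 761 and 1078. All 7 targets were highest in the Spp1 Arg1 state, in each of the 4 libraries. Vegfa in that state stood at 462, 331, 344 and 245 CPM, Egln3 at 506, 230, 350 and 160, Bnip3 at 419, 233, 267 and 273, and Ndrg1 at 767, 421, 615 and 655. P4ha1 was flat there, at 236, 236, 222 and 227 CPM, and Adm was at 23.4, 28.5, 12.5 and 13.6.

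Ly6c2 monocytes, the recently arrived cells of the lineage, showed the same direction, with a lower ratio to ctrl for Vegfa than the Spp1 Arg1 macrophages. In them Vegfa stood at 166, 57.1, 66.5 and 55.7 CPM, Egln3 at 116, 27.3, 43.0 and 21.0, and Bnip3 at 148, 58.5, 58.5 and 68.5. C1q macrophages, a mature state, went the other way for 4 genes and had ctrl as the lowest library. Hif1a stood there at 355, 584, 570 and 593 CPM, Vegfa at 86.3, 117, 124 and 112, Ndrg1 at 116, 156, 135 and 180, and Ankrd37 at 18.7, 34.0, 26.6 and 24.0. Bnip3 in C1q macrophages was nearly level at 90.4, 78.3, 82.9 and 89.5 CPM, while Egln3 kept its direction at 48.5, 22.7, 28.6 and 17.3.

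The states weighed were the 3 above and non-classical monocytes, which numbered 32, 150, 239 and 183. With each of 4 states given the same weight in every library, the number of genes lower in monocytes or macrophages was 3, 3 and 5 in the usual order, in place of 6, 6 and 7. Egln3 then stood at 172, 70.6, 107 and 50.1 CPM, Bnip3 at 172, 93.9, 106 and 109, Vegfa at 187, 128, 137 and 103, and Ndrg1 at 281, 187, 229 and 269. Adm was at 7.39 CPM in ctrl and 7.92 with 2DG, so its direction turned, against 3.45 with aPDL1 and 3.88 in the combination.

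**Figure D4:**
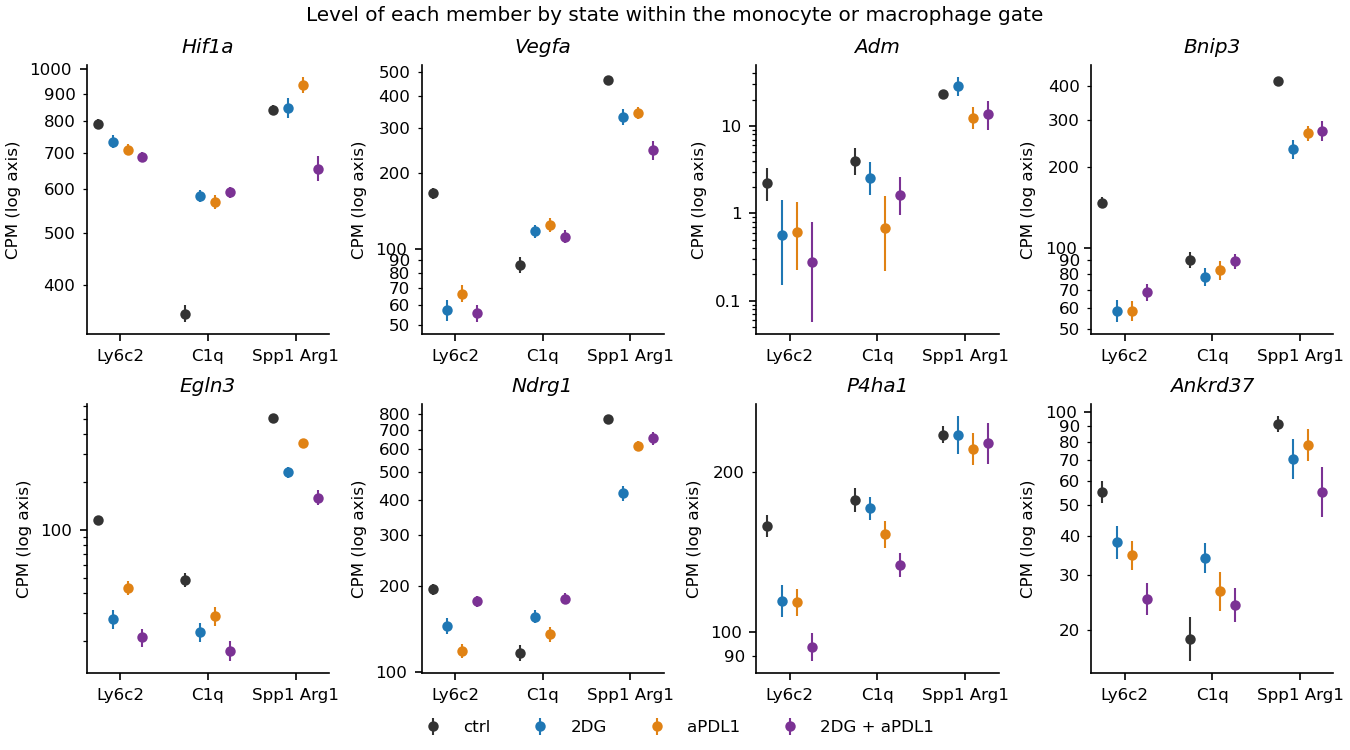
CPM (log axes, each panel with its own range) of each of the 8 genes in 3 states of the monocyte or macrophage gate, with points for the 4 libraries and bars for exact Poisson 95% intervals. For Hif1a, Vegfa, Ndrg1 and Ankrd37 the ctrl point is the lowest in C1q macrophages, while for Bnip3 and Egln3 it is the highest in all 3 states.

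Neutrophils were split in the same way into cells marked by Ccl3, Ccl4 and Cxcl3, numbering 1515, 89, 94 and 113, and cells marked by Retnlg, Il1r2 and Mmp8, numbering 949, 114, 88 and 56. Egln3 stood at 1222, 787, 1265 and 632 CPM in the Ccl3 Cxcl3 cells and at 518, 92.7, 206 and 22.8 in the Retnlg Il1r2 cells. In the former the aPDL1 library was level with ctrl, and in the latter every treated library was below it. Bnip3 stood at 580, 154, 319 and 260 CPM in the former and 286, 38.9, 7.35 and 50.04 in the latter, and P4ha1 at 652, 227, 586 and 333 against 244, 48.2, 39.2 and 36.4. Ndrg1 in the Retnlg Il1r2 cells was at 69.2, 55.6, 162 and 81.9 CPM, highest with aPDL1. The Retnlg Il1r2 cells of the treated libraries were few, with medians of 3388.5, 3000.5 and 2921.5 UMIs each. Their low values therefore rest on few UMIs and have wide counting error.

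Targets other than Egln3 were higher in the monocytes or macrophages that held Egln3. Monocytes or macrophages with at least 1 UMI of Egln3 numbered 1550 of 3258 in ctrl and 401, 577 and 409 in the others, and had somewhat more UMIs each, with medians of 11034.5, 9387, 7509 and 7566 against 10679.5, 7716, 6911 and 7076.5 in cells without. Ndrg1 was at 690 CPM in ctrl cells with Egln3 and 117 in those without, a 5.90-fold difference, and 3.19-fold, 4.90-fold and 3.41-fold higher in the treated libraries. Adm was 13.1-fold, 27.3-fold, 33.6-fold and 35.5-fold higher in cells with Egln3, from 30, 14, 7 and 9 UMIs in cells without. Bnip3 was 3.73-fold, 3.87-fold, 5.05-fold and 4.10-fold higher, Vegfa 3.35-fold, 3.56-fold, 3.92-fold and 3.35-fold, and P4ha1 1.61-fold, 1.51-fold, 1.91-fold and 1.86-fold. Hif1a differed least in the treated libraries, at 1.35-fold, 1.29-fold and 1.13-fold, with 1.66-fold in ctrl. In neutrophils the ratio for Ndrg1 between cells with and without Egln3 was 2.24 in ctrl and 0.80, 0.98 and 1.21 in the treated libraries. For Bnip3 that ratio was 2.78, 4.06, 5.70 and 5.15. Cells of a library are not replicates, and the states above are mixed in these figures.

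Cells carrying several targets were more frequent in ctrl. After each cell had been thinned to 2000 UMIs, 30.1% of monocytes or macrophages in ctrl held at least 3 of the 7 targets (exact Clopper-Pearson 95% interval 28.5 to 31.8). The shares were 8.53% (7.45 to 9.71) for 2DG, 10.2% (9.15 to 11.3) for aPDL1 and 7.26% (6.41 to 8.18) for the combination. Without thinning the shares were 63.5%, 35.7%, 31.2% and 29.4%, and 235, 100, 105 and 86 cells were too shallow to thin. In neutrophils the thinned shares were 34.6% (32.8 to 36.4), 8.50% (5.58 to 12.3), 12.6% (8.44 to 17.7) and 11.95% (8.02 to 16.9), and 53.1%, 15.5%, 19.2% and 20.5% without thinning, with 218, 28, 46 and 38 cells left out. Regulatory T cells held 6.72% in ctrl and 1.37%, 0% and 0.334% in the others, where 0% stands for 0 of 358 cells, with 3 cells making 0.838% and an exact interval that ends at 1.03%. CD8 T cells of ctrl gave 0 of 110, with 3 cells making 2.73% and an exact interval that ends at 3.30%. B cells of ctrl, as a type with low levels of these genes, gave 0 of 59, with 3 cells making 5.08% and an exact interval that ends at 6.06%.

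**Figure D5:**
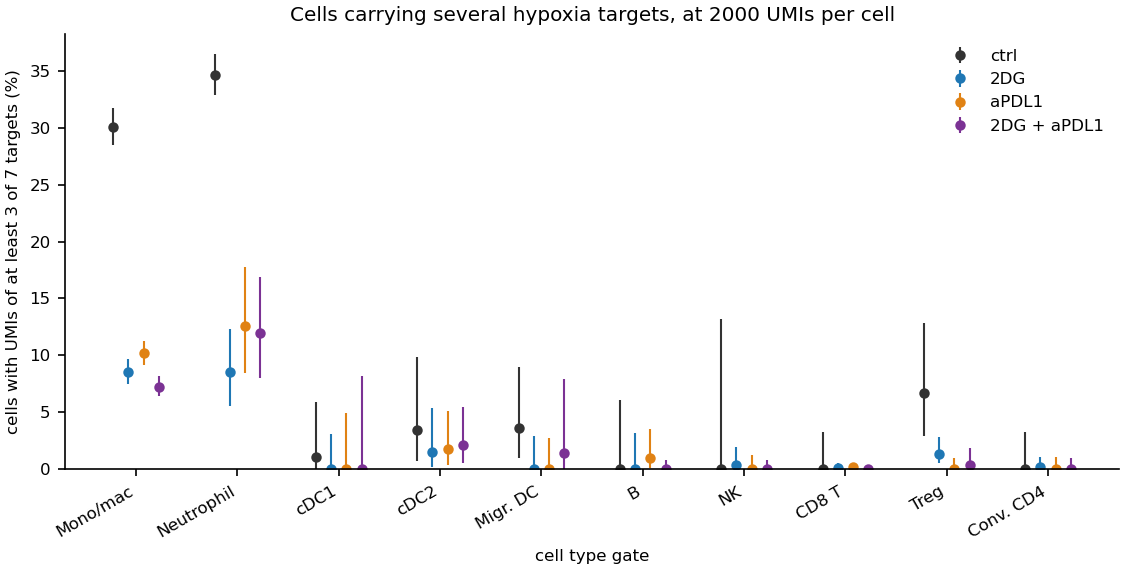
Percent of cells with UMIs of at least 3 of the 7 targets after thinning every cell to 2000 UMIs, by cell type gate and library, with exact Clopper-Pearson 95% intervals. The ctrl library stands at 30.1% in monocytes or macrophages and 34.6% in neutrophils, while the treated libraries stay at or below 12.6%.

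Other genes of the hypoxia pathway, a list of 64 fixed with earlier results of these data known, went the same way in the myeloid gates. In monocytes or macrophages 25, 17 and 30 of 59 tested were lower, beside 8.57%, 9.25% and 13.3% of all genes, and 4, 4 and 3 higher, beside 12%, 13.7% and 12.5%. Their median log2 ratios were -0.43, -0.36 and -0.59, beside 0.11, 0.10 and 0.00 over all genes. Hilpda, a lipid droplet protein, stood at 538, 94.3, 122 and 136 CPM. The exception was Siah2, a ubiquitin ligase that acts on the prolyl hydroxylases, which was the only one of the list higher in all 3 treated libraries, at 26.2, 40.6, 40.3 and 41.0 CPM. In neutrophils 32, 30 and 27 of 50 were lower, beside 17.6%, 17.7% and 15.2% of all genes, and 3, 4 and 6 higher, beside 30.3%, 26.8% and 35.2%. The medians there were -0.94, -0.74 and -0.69, beside 0.21, 0.13 and 0.32 over all genes. Hilpda stood there at 1712, 150, 338 and 451 CPM, Higd1a, a mitochondrial protein, at 258, 60.1, 75.1 and 83.7, and Fam162a, another, at 456, 84.5, 99.3 and 150.

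The list was also counted by group, to be read against the same shares of all genes. In monocytes or macrophages the mitochondria, autophagy and cell death genes had 7, 5 and 6 of 10 lower, and the collagen and endoplasmic reticulum genes 5, 3 and 5 of 6. The oxygen sensing genes had only 1, 1 and 2 of 8 lower and 1, 1 and 2 higher. Glycolysis and glycogen genes had 5, 3 and 9 of 16 lower there and 13, 11 and 9 of 16 in neutrophils. In CD8 T cells 12 of 48, 9 of 49 and 11 of 47 of the whole list were lower, beside 8.97%, 9.91% and 13.7% of all genes, and 2, 3 and 4 higher, beside 9.76%, 12.1% and 12%. There Ero1l, an oxidase of the endoplasmic reticulum, stood at 81.3, 43.8, 46.9 and 38.8 CPM, and Gbe1, the glycogen branching enzyme, at 65.0, 36.1, 31.8 and 31.2. In regulatory T cells 10 of 45, 9 of 43 and 8 of 37 were lower, beside 6.67%, 6.8% and 9.81% of all genes, and 0, 2 and 2 higher, beside 7.43%, 9.83% and 11%, with Ero1l at 153, 75.5, 73.9 and 56.2 CPM. In conventional CD4 T cells 12 of 44, 8 of 41 and 9 of 39 were lower, beside 7.23%, 6.01% and 9.64% of all genes, and 2, 4 and 4 higher, beside 8.09%, 8.83% and 11.8%, with Gbe1 at 149, 53.0, 41.8 and 57.2 CPM.

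Patterns were also compared across 41 units, each a cell type of at least 50 cells in a library, by Pearson's r of log2(CPM + 10). Among pairs of targets r ran from 0.17 for Ndrg1 with Ankrd37 to 0.87 for Bnip3 with Egln3, with 0.82 for Bnip3 with Vegfa. Hif1a had values between -0.205 and 0.411 with the 7 targets. Units of a library share its depth and handling, so these values describe the pattern only. Among the genes with at least 1000 UMIs, Ero1l was the most like Egln3 (r = 0.96) and the most like P4ha1 (r = 0.84). Plin2, a lipid droplet protein, was the most like Bnip3 (r = 0.95), the cytokine gene Osm the most like Vegfa (r = 0.93), Anxa3 the most like Ndrg1 (r = 0.89), Cd44 the most like Ankrd37 (r = 0.86) and Atp6v1b2 the most like Adm (r = 0.74). For Hif1a it was the overlapping Gm15283 (r = 0.96), followed by Ptgfrn (r = 0.93). With 1 CPM added in place of 10, between 2 and 4 of the 5 most alike genes of each stayed in the list.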

How the data were processed

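The authors deposited raw UMI counts per gene and barcode for each library, whole and not normalized, per the file headers. The headers name Cell Ranger 7.0.0 and the submitters' processing notes Cell Ranger 3.1.0 with mm10, so the version that made the counts is unsettled, with intron and strand handling not given in the sources used here. Cells needed 500 detected genes or more and no more than 10% mitochondrial UMIs, and the cells with the highest doublet scores were removed at 0.8% per 1000 barcodes (720, 572, 739 and 772 cells) with scanpy 1.11.5 in Python 3.11.15. A cell was typed by its highest mean scaled marker score of at least 0.2, which left 15.7%, 13.1%, 14.4% and 10.5% of cells untyped, and between 4.72% and 7.92% of cells lay within 0.05 of a limit. UMIs were summed per gate and library. Log2 ratios used counts plus 0.5 with conditional exact binomial 95% intervals (scipy 1.17.1). The procedure was tested on data simulated with counting error alone, with changes well past 1.5-fold in well-counted genes of the myeloid gates. The simulation did not cover changes near the mark, T cell gates or spread between libraries. All 8 genes were always named. From the pathway list up to 3 genes per direction and gate past 1.5-fold against ctrl in all 3 treated libraries were eligible, and for likeness up to 5 genes each. A gene these rules named is not reported here. The genes and lists were chosen with earlier results of these data known. Alternatives covered scaling by edgeR 4.0.16 and DESeq2 1.42.0 factors, filters, doublets, fold, weighting and clusters.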

Additional observations from a re-analysis of the deposited data

Results flagged for a closer look

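For 4 of the 8 genes the treated libraries lay above ctrl in C1q macrophages and below it in other states of the same gate. With 1 library per group this difference between states was not tested, and a change in which cells meet the C1q markers cannot be told apart from a change within them. All values are log2 ratios to ctrl for 2DG, aPDL1 and the combination in that order. Hif1a was at 0.718, 0.683 and 0.739 in C1q macrophages and at -0.11, -0.158 and -0.201 in Ly6c2 monocytes. Vegfa was at 0.44, 0.522 and 0.373 in C1q macrophages, at -1.534, -1.316 and -1.573 in Ly6c2 monocytes and at -0.48, -0.426 and -0.913 in Spp1 Arg1 macrophages. Ndrg1 was at 0.422, 0.219 and 0.633 in C1q macrophages, at -0.423, -0.718 and -0.135 in Ly6c2 monocytes and at -0.865, -0.32 and -0.227 in Spp1 Arg1 macrophages. Ankrd37 was at 0.861, 0.51 and 0.362 in C1q macrophages, at -0.538, -0.678 and -1.14 in Ly6c2 monocytes and at -0.367, -0.222 and -0.714 in Spp1 Arg1 macrophages.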

How the results depend on the processing

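The 15 counts of lower genes were recomputed under 13 settings wherever a setting applies, since states were weighed in the 2 myeloid gates and myeloid UMIs in the T cell gates alone, and 151 of 180 recomputed counts stayed within 1.5 times the reported count. Of 550 recomputed ratios past 1.5-fold, 38 came under the mark and 4 changed sign. Values follow in the order 2DG, aPDL1 and combination. With states weighing alike, monocytes or macrophages had 3 and 3 lower genes for 2DG and aPDL1, neutrophils had 2 for aPDL1, and Adm with 2DG turned to 0.099 in monocytes or macrophages. Without doublet removal, CD8 T cells had 5, 5 and 6 and conventional CD4 T cells 3, 4 and 3. With no minimum of UMIs, CD8 T cells had 6, 5 and 6, conventional CD4 T cells 3, 4 and 3, and regulatory T cells 6, 6 and 6. At 2-fold, conventional CD4 T cells had 0 for aPDL1 and regulatory T cells 1 for 2DG. By the mean over cells, conventional CD4 T cells had 1 in the combination. With Leiden clusters named from the same markers, regulatory T cells had 1 and 1 for aPDL1 and the combination, and without proliferating cells 1, 1 and 1. In T cells with no UMI of 5 myeloid genes, chosen after seeing the data, regulatory T cells had 0, 1 and 1, and Ndrg1 there turned to 0.367, 0.254 and 0.449. The cause of these moves was not tested, except that fewer cells and UMIs enter the last settings by construction. No paired analysis was possible because each group has 1 library. Depth limits the values of treated neutrophils, between 261 and 322 cells, and of ctrl T cells, between 113 and 119 cells a gate.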

Other observations

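Dendritic cells held the targets at other levels than the main gates. Ndrg1 in type 1 dendritic cells stood at 104, 91.0, 52.1 and 114 CPM in ctrl, 2DG, aPDL1 and the combination, and in type 2 dendritic cells at 82.6, 34.1, 61.4 and 109. The combination had the highest value for Ndrg1 in both, but its intervals overlapped those of ctrl. They were 87.5 to 145.7 against 89.3 to 120.1 in type 1 cells, with 44 cells and 63 UMIs in the combination. In type 2 cells they were 93.1 to 126.8 against 67.4 to 100.3. P4ha1 in plasmacytoid dendritic cells was at 172, 99.0, 85.9 and 26.8 CPM, from 13 UMIs in ctrl. In NK cells P4ha1 was at 91.7, 52.3, 69.5 and 36.2 CPM, from 17 UMIs in ctrl. Vegfa in migratory dendritic cells was at 61.0, 12.4, 31.1 and 13.7 CPM.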
